A study of Mus musculus with 20 samples.

Results

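Fibrinogen, the clotting factors made by hepatocytes and plasminogen were followed in mouse liver RNA-seq as 10 genes: Fga, Fgb, Fgg, F2, F5, F7, F9, F10, F11 and Plg. They were chosen by gene name from a table of 38924 genes, and all 10 were found once each and passed the filter on low values. The 20 libraries came from 20 male mice, 5 per group, sampled after 12 weeks on the assigned chow. The groups were C57BL/6J wild type mice (WT) on a control chow, mice labelled TSP-1 null (thrombospondin 1, gene Thbs1, a stock of The Jackson Laboratory) on the same control chow, WT mice on CDAHFD (a choline deficient, amino acid defined, high fat chow that produces steatohepatitis and fibrosis), and mice labelled TSP-1 null on CDAHFD. The knockout is not restricted to a cell type, WT and TSP-1 null mice were bought as separate stocks rather than bred as littermates, and the RNA came from pieces of whole liver, given as the right medial lobe in the series record and the right lateral lobe in the methods. The levels below are FPKM, fragments scaled to the length of the gene and to the fragments that the library has in genes. Comparisons of level between genes therefore rest on the deposited gene lengths.

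In the clotting cascade, tissue factor with factor VII, and factors XI and IX, lead to activation of factor X, which with its cofactor factor V turns prothrombin (F2) into thrombin. Thrombin cuts fibrinogen, a protein assembled in hepatocytes from the alpha, beta and gamma chains encoded by Fga, Fgb and Fgg, into fibrin. Plasmin, cut from plasminogen (Plg), dissolves the clot. The proteins of the 10 genes are secreted by hepatocytes, prothrombin and factors VII, IX and X need vitamin K to be completed, and fibrinogen is a positive acute phase protein that is induced by IL-6 through STAT3 and C/EBP factors.

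On GRCm38, the build of the table's coordinates, the fibrinogen genes lie side by side on chromosome 3, with Fgg at chr3:83007859-83015053 on the plus strand, Fga at chr3:83026153-83033615 on the plus strand and Fgb at chr3:83042247-83049803 on the minus strand. The whole cluster spans 41945 bases. F7 (chr8:13026034-13035809) and F10 (chr8:13037308-13056676) are plus strand neighbours separated by 1499 bases, and F11 lies on the minus strand of the same chromosome (chr8:45241170-45262031). The others are single genes, F2 at chr2:91625320-91636414 (minus), F9 at chrX:59999464-60030759 (plus), F5 at chr1:164151838-164220277 (plus) and Plg at chr17:12378609-12419384 (plus).

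Promoter windows of 300 bases, 250 before and 50 after the annotated start, were taken from RefSeq (GRCm38.p6) for 9 of the 10 genes, the exception being Plg. Some RefSeq starts differ from the gene bounds given above, and the Fgb and Fgg windows lie wholly upstream of those bounds. Positions below are counted from the RefSeq start. Those of the fibrinogen chains are shown because the 3 genes moved together, and that of F11 because it was the gene that went the other way on CDAHFD. Capitals mark matches, on either strand, to CTGGGAA (a STAT3 type element of IL-6 response) and TTGCNNAA (C/EBP type). Fga lies at chr3:83025903-83026202 (plus), Fgb at chr3:83049814-83050113 (minus), Fgg at chr3:83007474-83007773 (plus) and F11 at chr8:45261982-45262281 (minus), each written 5′ to 3′ in the direction of transcription.
Fga: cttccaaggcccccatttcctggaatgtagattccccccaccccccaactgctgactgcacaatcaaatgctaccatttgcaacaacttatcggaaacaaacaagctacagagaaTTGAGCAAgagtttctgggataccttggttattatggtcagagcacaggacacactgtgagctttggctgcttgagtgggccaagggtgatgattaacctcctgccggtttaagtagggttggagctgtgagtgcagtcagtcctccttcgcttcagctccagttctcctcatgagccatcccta
Fgb: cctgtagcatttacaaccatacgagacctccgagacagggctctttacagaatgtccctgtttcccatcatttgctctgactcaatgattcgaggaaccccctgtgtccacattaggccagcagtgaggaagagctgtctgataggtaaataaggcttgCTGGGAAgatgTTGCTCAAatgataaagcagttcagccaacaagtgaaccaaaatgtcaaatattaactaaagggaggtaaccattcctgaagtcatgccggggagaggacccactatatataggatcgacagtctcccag
Fgg: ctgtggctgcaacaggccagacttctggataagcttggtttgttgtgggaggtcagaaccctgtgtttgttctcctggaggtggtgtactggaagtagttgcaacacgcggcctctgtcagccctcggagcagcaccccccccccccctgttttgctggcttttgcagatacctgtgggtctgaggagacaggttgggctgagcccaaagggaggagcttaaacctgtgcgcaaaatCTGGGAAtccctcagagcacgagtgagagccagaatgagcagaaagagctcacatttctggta
F11: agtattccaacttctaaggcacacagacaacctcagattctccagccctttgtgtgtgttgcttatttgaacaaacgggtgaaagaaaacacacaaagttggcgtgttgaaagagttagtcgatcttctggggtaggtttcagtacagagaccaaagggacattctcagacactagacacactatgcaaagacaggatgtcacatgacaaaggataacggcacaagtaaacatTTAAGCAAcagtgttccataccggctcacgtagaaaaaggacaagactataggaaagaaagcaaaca
The Fgb window held both motifs, with CTGGGAA from -91 to -85 and the C/EBP type match from -80 to -73, counted from the start, and no 2 matches overlapped. Of the 9 windows, 3 held CTGGGAA (Fgb, Fgg and F9) and 4 held TTGCNNAA (Fga, Fgb, F9 and F11). Over 32851 promoter windows of the same length the shares were 11.1% and 10.8%. TATAAA was in none of the 9 windows and in 13.6% of all. The windows of F2, F5, F7 and F10 held none of these letters. These matches are descriptions of the letters and say nothing of which factor bound in these livers.

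Thbs1 was read first as a check of the genotype labels. On the control diet it stood at 0.058 to 0.326 FPKM in WT and at 0.986 to 1.895 FPKM in the libraries labelled TSP-1 null, so the RNA was higher in the group labelled null in 5 of 5 libraries (log2FC 2.28, limma FDR 1.02e-05). On CDAHFD it was 3.46 to 6.099 FPKM in WT and 3.048 to 4.398 FPKM in those labelled TSP-1 null (log2FC -0.39, FDR 0.408). These are totals over the gene, and whether the reads cover its targeted part was not tested. Every genotype comparison below rests on the labels, which the Thbs1 RNA goes against on the control diet.

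The libraries held 15641545 to 23276322 fragments in genes. The 10 genes were deeply covered, from 486 fragments in a library for F11 to 95549 for Fga. For F7 in control diet WT the coefficient of variation between mice, 2.91%, was close to the 2.20% to 2.58% that counting error alone gives at its fragment numbers, and in CDAHFD TSP-1 null it was 3.46% beside 2.49% to 2.97%. Hepatocyte markers were present in every library. Summed over Alb, Ttr, Apoa1, Apob, Cps1, Tat, Pck1 and Ass1, they ran from 35140 to 42180 FPKM in control diet WT, from 39480 to 47490 in control diet TSP-1 null, from 26610 to 38250 in CDAHFD WT and from 35490 to 46350 in CDAHFD TSP-1 null.

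Fibrinogen RNA was the most abundant of the set. In control diet WT, Fgb, the beta chain, stood at 2058 FPKM ± 195.1 (SD, n = 5), Fgg, the gamma chain, at 1899 ± 192.0 and Fga, the alpha chain, at 1149 ± 135.0. The order below them was Plg (853.5 ± 54.21), F2 (442.9 ± 36.48), F10 (151.9 ± 10.05), F5 (97.27 ± 9.129), F9 (59.23 ± 8.052), F7 (48.51 ± 1.412) and F11 (19.96 ± 4.209). The ranges of Fgb and Fgg overlapped, but inside single libraries Fgb was the higher in 5 of 5 in this group and in at least 4 of 5 in each of the others. The ranges of F9 and F7 overlapped too, with F9 the higher in 4 of 5 libraries, so that pair is not ordered beyond its spread. In the control diet libraries labelled TSP-1 null F7 (54.62 ± 6.892) came before F9 (50.34 ± 4.652), also with overlap, and the order of the means was otherwise the same in all 4 groups. These orders rest on the deposited gene lengths, among them 3358 bases for Fga, 1644 for Fgb and 1564 for Fgg. In fragments Fga came first in control diet WT, at 64130 to 81059, beside 55403 to 68183 for Fgb and 47946 to 62277 for Fgg. The 3 fibrinogen genes took 1.02% ± 0.104 of all gene fragments in control diet WT and the 10 genes together took 1.60% ± 0.120.

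**Figure D1:**
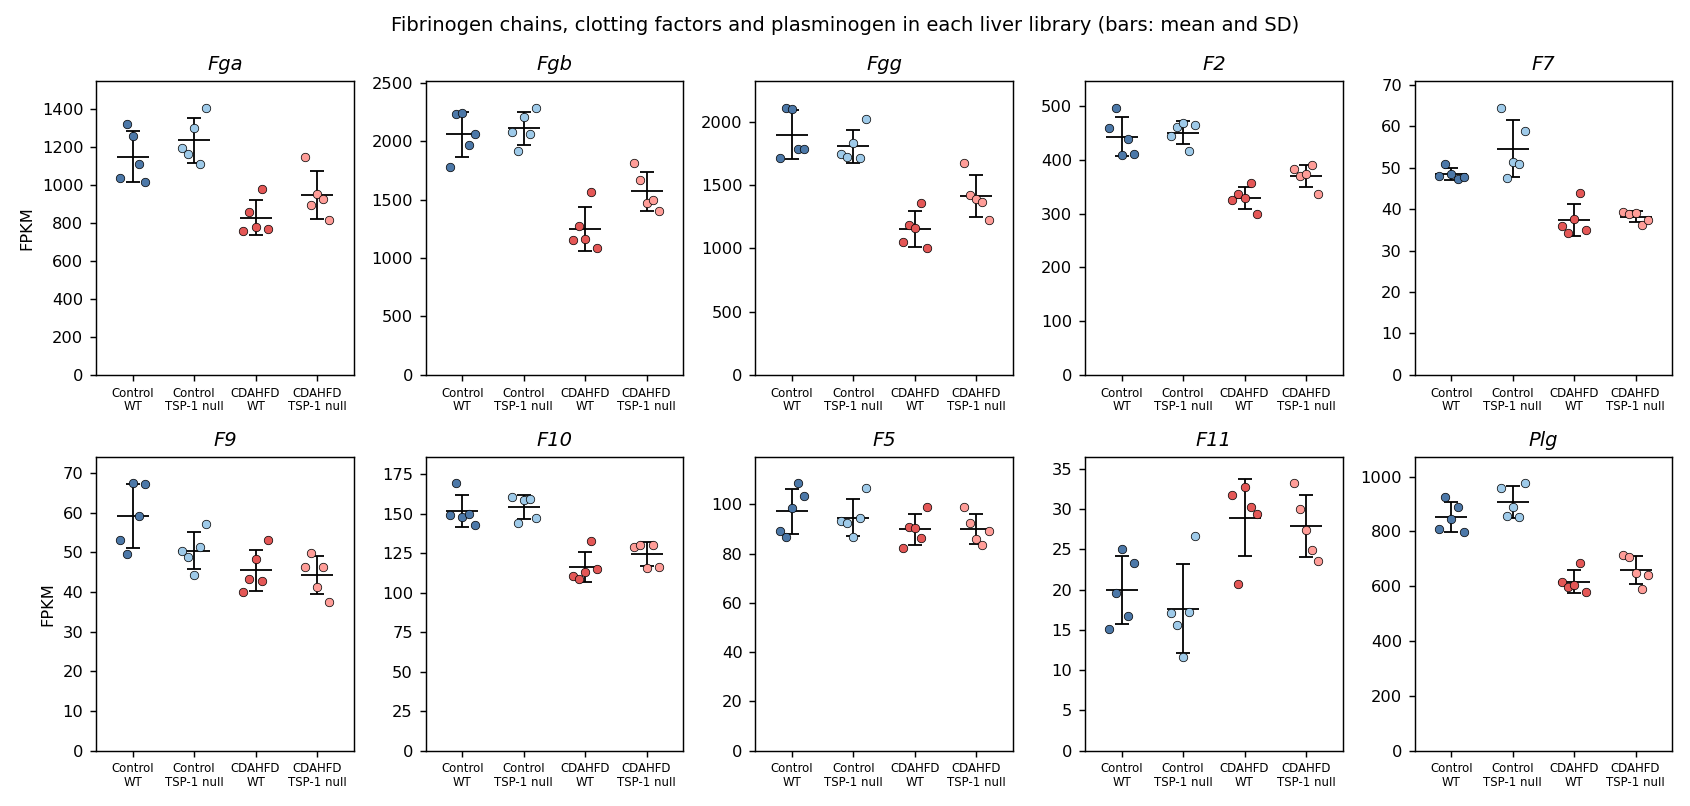
FPKM of each gene in each of the 20 libraries (points), with the group mean and SD (bars), n = 5 mice per group and linear axes from 0. Fgb and Fgg fell from means of 2058 and 1899 to 1247 and 1153 FPKM in WT on CDAHFD as deposited, while F11 is the panel in which the CDAHFD means (28.96 and 27.87) lie above the control means. Under quantile normalization Fga has a positive diet log2FC in both genotypes, and Fgg and Plg in TSP-1 null.

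The first comparison asks what 12 weeks of CDAHFD did to these RNAs in WT liver. Fibrinogen RNA was lower. Fgb measured 1782, 2237, 2245, 1964 and 2064 FPKM on the control diet and 1153, 1274, 1163, 1562 and 1082 FPKM on CDAHFD. The groups did not overlap, and Fgb fell by 0.73 on the log2 scale (95% interval -0.94 to -0.52, limma FDR 2.30e-06). Fgg measured 1711, 2112, 2102, 1786 and 1786 FPKM on the control diet and 1051, 1188, 1163, 1362 and 1002 FPKM on CDAHFD. It too had every CDAHFD library under every control library, with a log2FC of -0.72 (interval -0.92 to -0.52, FDR 1.65e-06). Fga measured 1037, 1321, 1259, 1113 and 1017 FPKM on the control diet and 760.5, 856.1, 777.7, 981.6 and 768.8 FPKM on CDAHFD. Its groups also stood apart, but its change was smaller, with a log2FC of -0.47 (interval -0.69 to -0.26, FDR 4.07e-04), short of the 1.5 fold that defines a DEG (differentially expressed gene, FDR under 0.05 and absolute log2FC above 0.58). All of these are changes in bulk tissue RNA as deposited, where fewer cells of a type and less RNA per cell cannot be told apart.

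The vitamin K dependent factors were lower by smaller amounts. F2, prothrombin, measured 458.4, 497.0, 409.3, 438.6 and 411.3 FPKM in control diet WT and 325.1, 336.0, 329.8, 357.0 and 299.1 FPKM in CDAHFD WT, without overlap (log2FC -0.43, interval -0.56 to -0.29, FDR 9.29e-06). F10, the protease of the prothrombinase complex, went from 151.9 ± 10.05 to 116.1 ± 9.536 FPKM (SD, n = 5, log2FC -0.39, FDR 2.02e-05), again without overlap. F7, which starts clotting with tissue factor, had a very tight control group of 47.24 to 50.89 FPKM, and CDAHFD libraries of 34.17 to 43.90 FPKM all lay below it (log2FC -0.38, FDR 1.78e-04). F9, the factor absent in haemophilia B, was lower on average (log2FC -0.38, FDR 0.00232), but its control libraries of 49.51 to 67.34 FPKM overlapped the CDAHFD libraries of 39.87 to 53.01 FPKM. None of these 4 genes reached the fold threshold.

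Plg, the zymogen of plasmin, measured 807.1, 926.8, 846.8, 888.1 and 798.9 FPKM in control diet WT and 614.7, 595.5, 605.0, 686.0 and 578.6 FPKM in CDAHFD WT. The groups stood clear of each other (log2FC -0.47, interval -0.62 to -0.32, FDR 5.86e-06), a change of the same size as that of Fga. F5, the cofactor of factor Xa, was 97.27 ± 9.129 FPKM on the control diet and 89.82 ± 6.215 FPKM on CDAHFD (SD, n = 5), a difference that did not pass (log2FC -0.11, interval -0.26 to 0.04, FDR 0.170). F11, the protease that activates factor IX, went the other way. It measured 15.13, 19.63, 25.04, 16.72 and 23.30 FPKM in control diet WT and 31.71, 20.67, 32.75, 30.29 and 29.36 FPKM in CDAHFD WT. In CDAHFD WT, 4 of 5 libraries lay above all control libraries and replicate 2 lay among them, with a log2FC of 0.54 (interval 0.16 to 0.92, FDR 0.0122), under the fold threshold.

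In WT, 2 of the 10 genes, Fgb and Fgg, were called lower, beside 4.62% of the 14524 genes tested, and none was called higher, beside 44.1%. At FDR under 0.05 alone, 8 were lower (8.73% of all genes) and 1, F11, was higher (64.4%). The groups did not overlap for 7 lower genes (5.7% of all genes) and for no higher gene (50.5%). The median log2FC of the 10 genes was -0.41, against 0.53 over all genes tested. F11, with 0.54, therefore changed by the same amount as the median gene, and the other 9 were at -1.26 to -0.64 relative to it. Under quantile normalization neither call held, with a log2FC of -0.19 for Fgb (FDR 0.0758) and -0.092 for Fgg (FDR 0.475), and the gap between the 2 medians shrank from -0.94 to -0.063.

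In the mice labelled TSP-1 null the same diet comparison gave smaller estimates for fibrinogen, though the interaction, given with the genotype comparisons, did not pass. Fgb measured 2083, 1913, 2207, 2062 and 2287 FPKM on the control diet and 1814, 1665, 1473, 1501 and 1402 FPKM on CDAHFD. The groups did not overlap (log2FC -0.43, interval -0.64 to -0.22, FDR 7.80e-04). Fgg measured 1744, 1719, 1835, 1712 and 2022 FPKM on the control diet and 1671, 1419, 1388, 1368 and 1223 FPKM on CDAHFD, a narrow gap with no overlap (log2FC -0.36, interval -0.56 to -0.16, FDR 0.00263). Fga measured 1196, 1165, 1298, 1109 and 1407 FPKM on the control diet and 1150, 892.8, 952.0, 924.3 and 814.0 FPKM on CDAHFD. Replicate 1 of the CDAHFD group lay inside the control range for Fga (log2FC -0.39, FDR 0.00226), and that mouse was the highest of its group for all 3 chains.

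F7 showed the largest decrease of the set in this genotype. It measured 64.50, 47.49, 51.30, 51.02 and 58.80 FPKM on the control diet and 39.32, 38.90, 39.15, 36.28 and 37.37 FPKM on CDAHFD, with every CDAHFD library below every control library (log2FC -0.51, interval -0.67 to -0.35, FDR 8.21e-06). Plg went from 906.4 ± 57.54 to 660.0 ± 50.68 FPKM (SD, n = 5, log2FC -0.46, FDR 8.67e-06), nearly as in WT. F2 went from 450.6 ± 21.24 to 370.4 ± 20.96 FPKM (log2FC -0.28, FDR 7.16e-04) and F10 from 154.1 ± 7.673 to 124.3 ± 7.543 FPKM (log2FC -0.31, FDR 2.44e-04). None of Plg, F2 and F10 had overlapping groups. F9 (log2FC -0.19, FDR 0.101) and F5 (log2FC -0.07, FDR 0.392) did not pass. F11 measured 17.10, 15.63, 11.58, 17.17 and 26.67 FPKM on the control diet and 33.20, 30.06, 27.47, 24.98 and 23.62 FPKM on CDAHFD. Only replicate 5 of the control group reached into the CDAHFD range, and F11 was called higher (log2FC 0.70, interval 0.32 to 1.08, FDR 0.00209).

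In TSP-1 null, 1 of the 10 genes was called higher (41.9% of all genes) and none was called lower (4.0%). At FDR under 0.05 alone 7 were lower (7.69%) and 1 was higher (64.0%), 6 lower genes had groups that did not overlap (5.03%) and no higher gene did (52.7%). The median log2FC was -0.33 for the 10 genes and 0.50 for all genes tested. Without control diet TSP-1 null replicate 3, the library with the lowest F11, the F11 call was lost and 0 of the 10 genes were called.

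**Figure D2:**
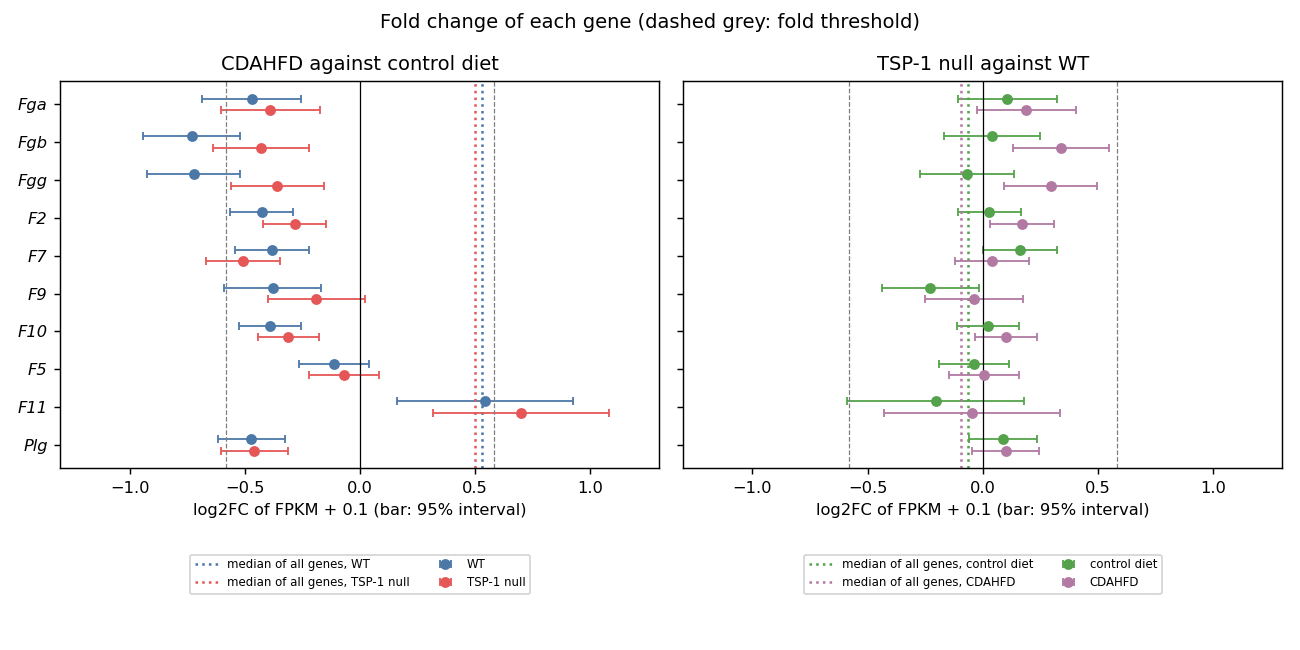
log2FC of FPKM + 0.1 for each gene with its 95% interval, on the left CDAHFD against control diet in each genotype and on the right the genotype difference by diet, with dotted lines at the median of all 14524 genes tested and dashed lines at the fold threshold of 0.58. On the left every gene other than F11 lies below 0 and below the dotted lines at 0.53 and 0.50, although under quantile normalization Fga turns positive in both genotypes and Fgg and Plg in TSP-1 null. On the right all points lie between -0.23 and 0.34.

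How far the diet result holds depends on how the libraries are set on a common scale. FPKM as deposited are shares of each library, and with diet their all-gene median log2FC was above 0, as given. Median of ratios scaling, which puts the median gene near 0, shifted it by -0.52 in WT and -0.50 in TSP-1 null. With it 9 of the 10 genes were called lower in each genotype, Fgb by -1.27 (WT) and -0.95 (TSP-1 null), while F11 was not called (log2FC 0.00 in WT, FDR 0.9945, and 0.18 in TSP-1 null, FDR 0.431). Quantile normalization, which gives every library the same distribution, left 0 genes called in WT and 1, F7, called lower in TSP-1 null (log2FC -0.69, FDR 5.19e-07). It turned the most abundant genes most. Fga became 0.13 in WT (FDR 0.244) and 0.35 in TSP-1 null (FDR 0.00337), Fgg became 0.14 and Plg 0.12 in TSP-1 null, while F10, F7 and F9 were lower at FDR under 0.05 in both genotypes, F9 in TSP-1 null (log2FC -0.36, FDR 0.0147) without having passed as deposited.

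**Figure D3:**
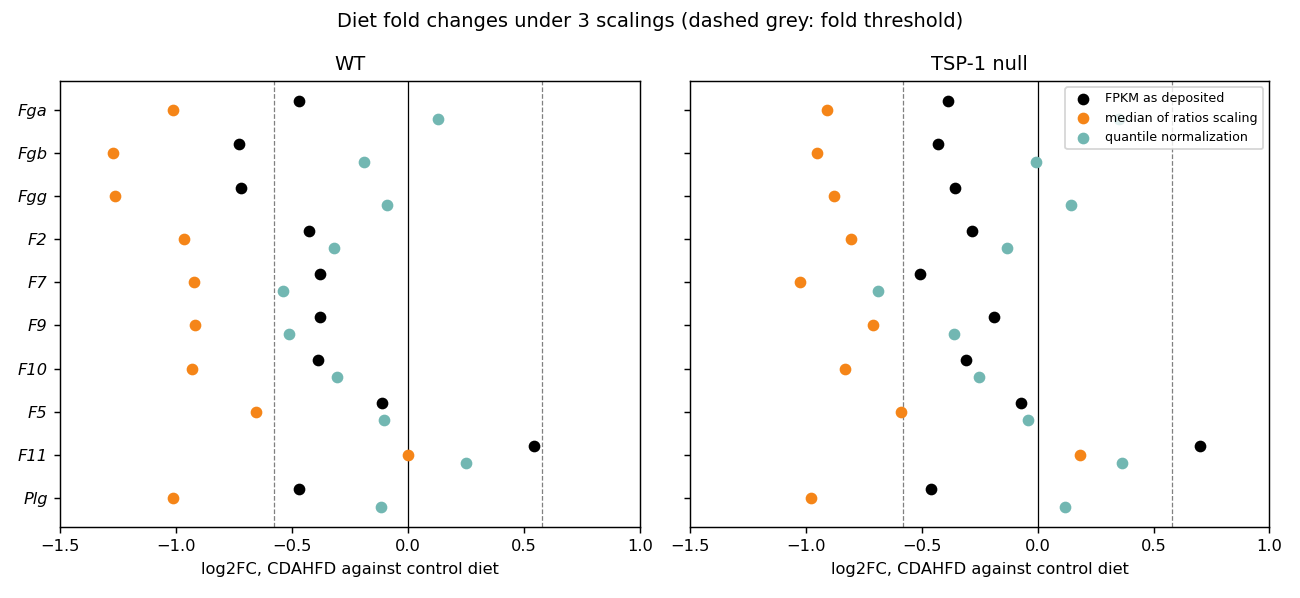
log2FC of each gene for CDAHFD against control diet in WT (left) and TSP-1 null (right) with FPKM as deposited (black), after median of ratios scaling (orange) and after quantile normalization (green), with dashed lines at the fold threshold of 0.58. The orange points of all genes other than F11 lie below -0.58, and the green points of Fga cross to the positive side in both panels.

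Ratios between genes inside a library do not depend on a scaling factor. They were chosen after the values of single genes were seen and are given as a description, without a test. Fgg over Fga was 1.66 ± 0.0632 in control diet WT (range 1.598 to 1.755), 1.47 ± 0.0491 in control diet TSP-1 null (1.414 to 1.543), 1.39 ± 0.0687 in CDAHFD WT (1.303 to 1.496) and 1.497 ± 0.0553 in CDAHFD TSP-1 null (1.453 to 1.589). Control diet WT stood above all libraries of the other groups, so the chains were not in a fixed ratio across groups. Fgb over Fga was 1.80 ± 0.134, 1.71 ± 0.0936, 1.5 ± 0.0658 and 1.67 ± 0.129 in the same order. Every CDAHFD WT library, at most 1.592, was below every control diet library of either genotype, at least 1.625. Fga thus made up 22.5% of the summed fibrinogen FPKM in control diet WT and 25.7% in CDAHFD WT. Among the ratios given here, F11 over F9 changed most. It was 0.337 ± 0.0512 (WT) and 0.345 ± 0.0751 (TSP-1 null) on the control diet. On CDAHFD it was 0.643 ± 0.127 (WT) and 0.631 ± 0.0656 (TSP-1 null). The highest control library was at 0.467 and the lowest CDAHFD library at 0.478. As a share of all gene fragments, fibrinogen was 0.664% ± 0.0832 in CDAHFD WT and 0.797% ± 0.0916 in CDAHFD TSP-1 null, where control diet TSP-1 null had 1.04% ± 0.0809.

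**Figure D4:**
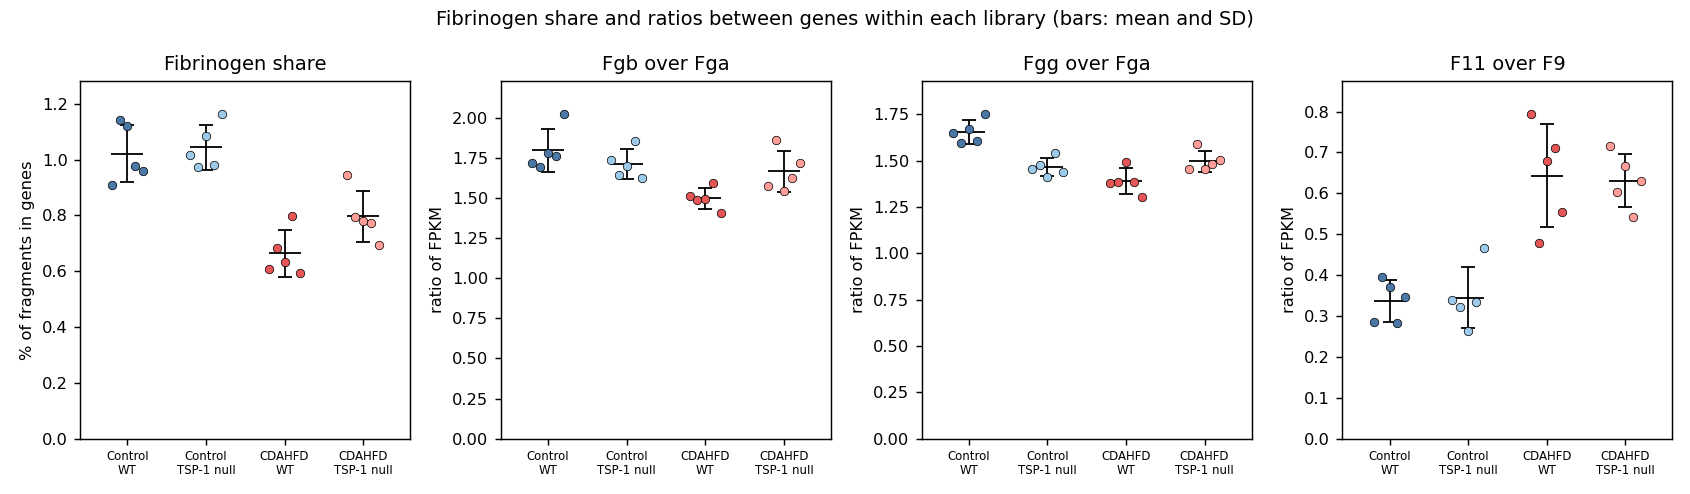
Fibrinogen share of the fragments in genes (Fga, Fgb and Fgg together, in %) and the FPKM ratios Fgb over Fga, Fgg over Fga and F11 over F9 in each library (points), with the group mean and SD (bars), n = 5. Fgg over Fga is highest in control diet WT (at least 1.598), and F11 over F9 is above 0.47 in all CDAHFD libraries and under it in all control libraries.

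The genotype comparisons ask whether the libraries labelled TSP-1 null differed from WT on the same diet. On the control diet none of the 10 genes was called higher (1.74% of all genes) or lower (3.03%), and none passed FDR under 0.05 alone (3.47% of all genes higher, 9.6% lower). The groups overlapped for all 10, where 2.33% of all genes were higher and 6.69% lower without overlap. At an unadjusted limma p under 0.05 there were 2 genes, F7 (log2FC 0.16, FDR 0.177) and F9 (log2FC -0.23, FDR 0.149), and voom on the recovered fragments called 0 as well. The fibrinogen chains had log2FC of 0.11 (Fga, interval -0.11 to 0.32), 0.04 (Fgb, interval -0.17 to 0.25) and -0.07 (Fgg, interval -0.27 to 0.13), all with intervals that spanned 0. On CDAHFD none was called higher (0.165%) or lower (0.33%) and none passed FDR under 0.05 alone (0.255% higher, 0.868% lower). The groups again overlapped for all 10 (0.847% of all genes were higher and 4.13% lower without overlap). Those with an unadjusted limma p under 0.05 were 3, Fgb (log2FC 0.34, FDR 0.1001), Fgg (log2FC 0.29, FDR 0.131) and F2 (log2FC 0.17, FDR 0.193), and voom called 0. Without CDAHFD WT replicate 4, the WT library with the highest Fgb, Fgb passed FDR under 0.05 (log2FC 0.42, FDR 0.0311), still short of the fold. Of the CDAHFD TSP-1 null libraries, 3 of 5 for Fgb, at 1402 to 1501 FPKM, lay below the highest WT library of 1562 FPKM.

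The interaction asks whether the diet change differed between the genotypes (TSP-1 null less WT). It was called for none of the 10 genes (0.337% of all genes higher, 0.31% lower), and none passed FDR under 0.05 alone (0.468% and 0.386%). The 2 genes with an unadjusted limma p under 0.05 were Fgg (0.36, interval 0.08 to 0.65, FDR 0.201) and Fgb (0.30, interval 0.00 to 0.60, FDR 0.322), and voom called 0. The smaller decrease of Fgb and Fgg in TSP-1 null than in WT on CDAHFD therefore did not pass the test of the difference over all genes. F11 (0.16, interval -0.38 to 0.70) and Plg (0.01, interval -0.19 to 0.22) had estimates close to 0 relative to their intervals, of which that of F11 is wide.

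Within groups the fibrinogen genes varied together. Over the 20 libraries, deviations from the group means in log2(FPKM + 0.1) correlated with r = 0.94 for Fga with Fgg, 0.92 for Fgb with Fgg and 0.84 for Fga with Fgb. Plg followed them less closely (r = 0.68 to 0.71), and F9 and F5 hardly at all (r = 0.01 to 0.12), although F9 and F5 had r = 0.73 with each other. F2 and F5 had the lowest value (r = -0.43). Values from 1 library share its depth and its composition, so these are descriptions. Outside the set, the genes whose deviations were most like the fibrinogen mean were Hexdc (r = 0.73), Apof (r = 0.71), Serpinf2, the gene of the plasmin inhibitor (r = 0.69), Kcnk10 (r = 0.68) and Gm25361 (r = 0.67).

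The rest of the system was read from lists written for clotting, its brakes and fibrinolysis. Of the 9 other clotting factors tested, 3 were called higher and 0 lower on CDAHFD in each genotype, where 44.1% (WT) and 41.9% (TSP-1 null) of all genes were called higher. Median of ratios scaling turned the balance, with 1 higher and 6 lower in WT and 2 higher and 5 lower in TSP-1 null. The 3 were F13a1, the clot cross-linking subunit of factor XIII, F3, tissue factor (2.22 to 3.90 FPKM, log2FC 0.79), and Vwf, von Willebrand factor (0.640 to 1.45 FPKM, log2FC 1.04). The calls of F3 in WT and of Vwf in both genotypes were lost under either scaling. F13a1 stood at 0.015 to 0.112 FPKM in the control libraries and at 0.451 to 1.015 FPKM in the CDAHFD libraries. It passed the filter on low values through CDAHFD alone, so its call was favoured by the filter and is no support. At FDR under 0.05, without reaching the fold, 4 were lower in WT (F12, F13b, Kng1 and Kng2), among them F12 (314.7 to 248.7 FPKM, log2FC -0.34) and Kng1 (596.0 to 431.1 FPKM, log2FC -0.48, with a sign that turned under quantile normalization in TSP-1 null). Klkb1, the gene of plasma prekallikrein, did not pass in WT as deposited (5.73 to 5.02 FPKM, log2FC -0.20, FDR 0.299). Either scaling called Klkb1 lower in each genotype, in WT by -0.73 with median of ratios scaling and -0.85 with quantile normalization. F8, the gene of factor VIII, was not called as deposited but was called lower in WT under either scaling (log2FC -0.73 and -1.01 in the same order). The list's median log2FC was -0.21 in WT and -0.13 in TSP-1 null.

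Among 9 of 10 anticoagulant genes tested, 3 were called higher in WT and 4 in TSP-1 null, with none lower, shares that did not exceed the 44.1% and lay near the 41.9% of all genes. Median of ratios scaling gave 2 higher and 3 lower in WT and 3 higher and 3 lower in TSP-1 null. Procr, the endothelial protein C receptor, went from 0.578 to 3.98 FPKM in WT (log2FC 2.61), Thbd, thrombomodulin, from 1.22 to 4.08 FPKM (log2FC 1.64), and Tfpi, the inhibitor of tissue factor, from 1.21 to 2.34 FPKM (log2FC 0.89), the last not called in WT under either scaling. Serpina10 was called in TSP-1 null (log2FC 0.66), where median of ratios scaling ended the call. Serpinc1, antithrombin, which hepatocytes secrete, was lower in WT at FDR under 0.05 (819.2 to 623.1 FPKM, log2FC -0.39), a change that quantile normalization brought to 0 in WT and turned positive in TSP-1 null. The list's median was 0.23 in WT and 0.33 in TSP-1 null, both under the all-gene median.

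Of 10 of the 11 fibrinolysis genes tested, 6 were called higher in each genotype, beside 44.1% and 41.9% of all genes, and none lower. The same 6 stayed called under both scalings, with 2 lower under median of ratios scaling, Hrg and Cpb2. In WT, Plau, urokinase, went from 0.812 to 10.6 FPKM (log2FC 3.56). Plat, the tissue plasminogen activator, stood at 0.044 to 0.289 FPKM in the control libraries and at 5.427 to 9.693 FPKM in the CDAHFD libraries, and Plaur, the urokinase receptor, had means of 0.497 and 12.2 FPKM in WT. Both passed the filter through CDAHFD (above 0.5 FPKM in 0 and 2 control libraries), so no fold is given for them and their calls are no support. Anxa2, a plasminogen receptor subunit, went from 3.65 to 43.8 FPKM (log2FC 3.59) and Plgrkt, a plasminogen receptor, from 1.23 to 4.96 FPKM (log2FC 1.95). Plg itself, the substrate of Plat and Plau, was lower on CDAHFD as deposited (a positive log2FC under quantile normalization in TSP-1 null). Hrg (log2FC -0.44) and Cpb2 (log2FC -0.52), secreted by hepatocytes, were lower in WT at FDR under 0.05.

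Of 4 thrombin and protease receptor genes 2 were tested and called higher in each genotype, F2r (log2FC 1.25 in WT) and F2rl1, which stood at 0.022 to 0.144 FPKM in the control libraries, passed the filter through CDAHFD alone and is no support. For these lists too the share of all genes called higher by diet was 44.1% (WT) and 41.9% (TSP-1 null), and that called lower 4.62% and 4.0%. Of 3 of 4 fibrinogen-like genes tested, Fgl2 was called higher (log2FC 1.54 in WT) and Fgl1, a hepatocyte gene, was called lower in each genotype (108.0 to 40.4 FPKM in WT, log2FC -1.42), under both scalings too. Of 8 genes of the vitamin K cycle and factor secretion, 1, Calu, was called higher in each genotype, though not under median of ratios scaling or, in WT, quantile normalization. Of 11 of 12 genes of the transcription and IL-6 list, Socs3 (log2FC 0.84) and Il6ra (log2FC 0.59) were called higher in WT, the calls being lost under either scaling. Median of ratios scaling called 4 genes of this list lower in each genotype. Il6 itself was under the filter on low values. Among the genes named from these lists, by genotype on the control diet Il6ra was called higher in TSP-1 null (log2FC 0.80), and F3 (-0.61), Anxa2 (-0.61) and Fgl2 (-0.80) were called lower, the last 3 not under either scaling. In that comparison 1.74% of all genes were called higher and 3.03% lower. On CDAHFD no gene of these lists was called by genotype as deposited (0.165% of all genes higher, 0.33% lower) or under median of ratios scaling. Under quantile normalization Il6ra was called higher in TSP-1 null (log2FC 0.61, FDR 0.0383, against 0.52 as deposited).

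The acute phase genes moved in both directions. Of 11 tested, 3 were called higher and 1 lower in WT, and 5 higher and 1 lower in TSP-1 null, beside 44.1% and 41.9% of all genes higher and 4.62% and 4.0% lower. Median of ratios scaling gave 3 higher and 3 lower in each genotype, with Hp and Hpx no longer called in TSP-1 null. Lcn2 went from 3.97 to 108 FPKM (log2FC 4.87), Orm2 from 11.03 to 189 FPKM (log2FC 4.13) and Saa3 from 6.98 to 60.3 FPKM (log2FC 3.15) in WT, each also called in TSP-1 null and under both scalings. Saa1 (log2FC 0.01, FDR 0.990) and Orm1 (log2FC 0.14, FDR 0.349) did not pass, and Itih4 was called lower in WT (627.2 to 351.4 FPKM, log2FC -0.82). The list's median of 0.19 in WT lay between that of the fibrinogen genes (-0.72) and that of all genes (0.53). Under quantile normalization it did not, with a list median of 0.47 (5 higher, 1 lower) against -0.091 over all genes.

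**Figure D5:**
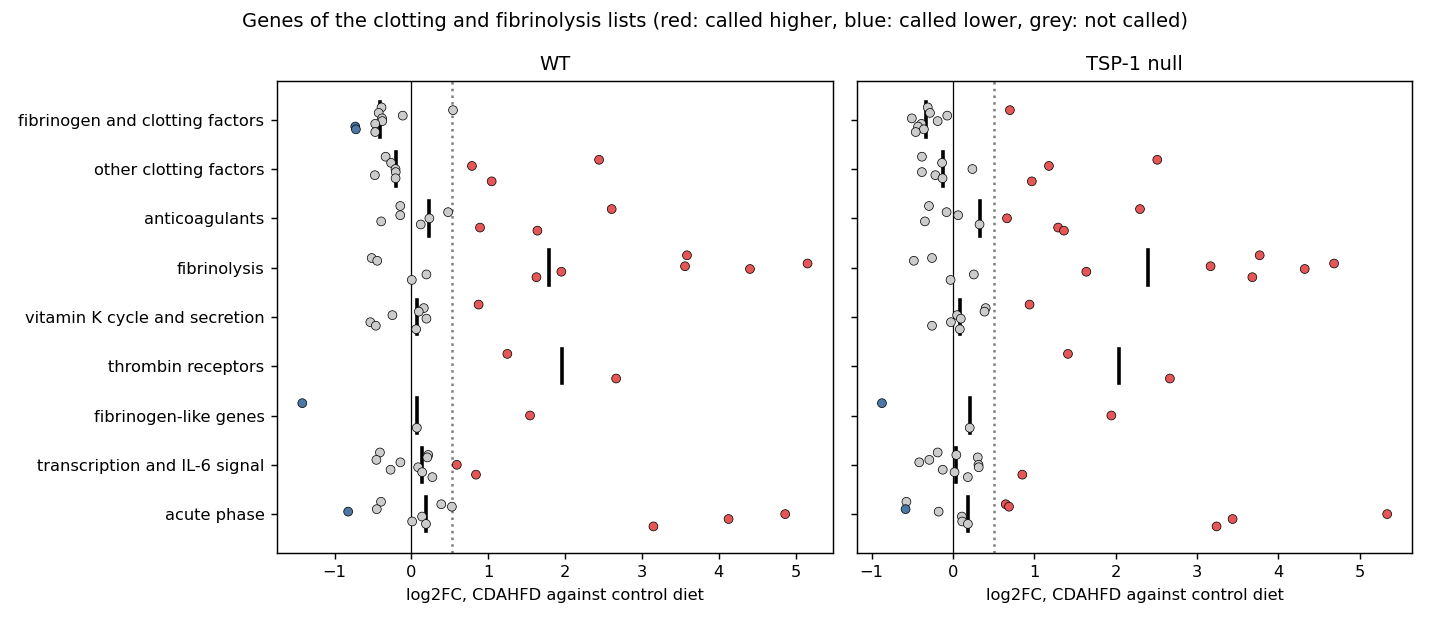
log2FC on CDAHFD of each tested gene of the lists (points, red where called higher, blue where called lower, grey where not called) in WT (left) and TSP-1 null (right), with the list's median as a black bar and the median of all genes tested as a dotted line (0.53 and 0.50). The fibrinogen and clotting factor genes lie to the left with a median of -0.41 and -0.33, and called genes of the fibrinolysis and acute phase lists lie far to the right, among them Lcn2 at 4.87 in WT and 5.34 in TSP-1 null.

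Markers of several other cell types moved with the diet. All 8 stellate cell and myofibroblast markers, all 5 cholangiocyte markers and all 5 lymphocyte markers were called higher in each genotype as deposited. So were 5 (WT) and 6 (TSP-1 null) of the 7 macrophage markers tested, beside 44.1% and 41.9% of all genes called higher. The Kupffer cell marker Clec4f went the other way and was called lower in each, by -1.22 for WT and -0.77 for TSP-1 null on the log2 scale. Timp1, Krt7, Krt19, Trem2, Cd3e, Cd8a and Ms4a1 were above 0.5 FPKM in at most 2 control libraries, so the filter favoured their calls. Under quantile normalization 2 lymphocyte markers were called in WT and 0 in TSP-1 null. The call of Lrat, a stellate cell marker, was lost under either scaling in both genotypes. Of 6 endothelium markers, 1 was called higher in WT and 2 in TSP-1 null, with median log2FC of 0.02 and 0.32. Kdr and Cdh5 of that list were called lower in WT under either scaling. Of 4 erythroid markers, 1 was called lower in WT and 2 in TSP-1 null, where either scaling called all 4 lower. Summed stellate markers ran from 9.29 to 14.4 FPKM in control diet WT and from 132 to 278 FPKM in CDAHFD WT. Of the 8 hepatocyte markers, 2 were called lower in WT (Tat and Pck1) and 4 in TSP-1 null, beside 4.62% and 4.0% of all genes. Their median log2FC was -0.30 and -0.56, beside -0.41 and -0.33 for the 10 genes here. Median of ratios scaling called 7 and 5 of the 8 markers lower, and quantile normalization 0 and 1. Alb, the most abundant, did not pass, with a log2FC of -0.13 for WT (FDR 0.409) and 0.09 for TSP-1 null (FDR 0.582). On the control diet 3 hepatocyte markers, Cps1, Pck1 and Ass1, were called higher in TSP-1 null (1.74% of all genes), where none of the 10 genes was. The Pck1 call was lost under quantile normalization (log2FC 0.60, FDR 0.0698), and median of ratios scaling added Tat (log2FC 0.87, FDR 0.0454). Summed platelet markers ran from 1.05 to 1.68 FPKM in control diet WT and from 7.68 to 10.5 FPKM in CDAHFD WT. The rise was mostly that of Pf4 (0.680 to 7.63 FPKM in WT). Of 3 tested, 2 were called higher in WT, Pf4 and Itga2b, the latter not under either scaling, and 1 in TSP-1 null. Ppbp, the third, was not called as deposited. It was called lower under quantile normalization (log2FC -1.09 in WT, -1.70 in TSP-1 null) and, in TSP-1 null, under median of ratios scaling (-0.91). The part of these shifts in cell markers in the fibrinogen and clotting factor differences was not tested.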

How the data were processed

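The authors extracted RNA from liver, made poly(A) libraries with a directional kit and sequenced them as read pairs of 150 bases on an Illumina HiSeq. The submitters' processing notes name STAR 2.5.2, featureCounts and Subread 1.5.1. They give the build as GRCh38, a human build, while the table's gene coordinates are those of mouse GRCm38. The deposited FPKM, 1 table of all libraries, were not normalized further between libraries. FPKM times gene length in kb summed to 999999.71 to 1000000.25 per library, and fragments recovered from them were whole (within 0.1) for 100% of the values checked.

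A single limma model (version 3.58.1, R 4.3.3, eBayes with trend) was fitted to log2(FPKM + 0.1) of all 20 libraries, with group as the factor. It covered 14524 genes that exceeded 0.5 FPKM in 5 or more libraries. DEGs had a Benjamini-Hochberg FDR under 0.05 over these genes and an absolute log2FC above 0.58. The tests are two-sided, and a log2FC is on the log2(FPKM + 0.1) scale. The steps were tested on simulated data. Replicates are separate mice by their titles. No 2 libraries of a group were copies (chi-square per degree of freedom at least 13.0 over 40 pairs). The libraries carry no molecular identifiers, so the counts behind a value cover counting error only. Since the values are not raw counts, limma with voom on the recovered fragments was run only as an alternative, beside other pseudocounts, filters, scalings, fits, a replicate block and the omission of each library.

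The genes and lists were chosen with earlier results of these data known. The text names the 10 genes, Thbs1, of each list at most the 6 called genes with the lowest FDR, genes of a list for their role, cell type markers and the 5 genes most like the fibrinogen mean. Of the lists, 2 genes are not reported here. Other software was pandas 2.3.3 and numpy 2.4.6 under Python 3.11.15, with matplotlib 3.10.9 for plots.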

Additional observations from a re-analysis of the deposited data

Results flagged for a closer look

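In 40 groups of 5 libraries (10 genes in 4 groups), 3 had 1 library apart from the rest by Dixon's criterion (critical value 0.71), which chance alone meets in about 1 group of 20. F10 in control diet WT replicate 2, at 169 FPKM, lay above the other libraries of its group (143 to 150 FPKM). F10 in CDAHFD WT replicate 4, at 133 FPKM, lay above its group (109 to 115 FPKM), and this mouse was also the highest of its group for all 3 fibrinogen chains, F2, F7 and Plg. F11 in CDAHFD WT replicate 2, at 20.7 FPKM, lay below its group (29.4 to 32.8 FPKM). Without it F11 was called higher in WT too.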

How the results depend on the processing

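In WT on CDAHFD the number of genes called was 2, and it was 9 with median of ratios scaling (0 higher, 9 lower), 0 with quantile normalization and 9 without the fold threshold (1 higher, 8 lower). In TSP-1 null the number was 1, F11, and it was 9 with median of ratios scaling (0 higher, 9 lower). Without the fold threshold it was 8 (1 higher, 7 lower). Quantile normalization also gave 1, but that call was F7, lower, and F11 was not called (log2FC 0.37, FDR 0.106). Leaving out 1 library gave 2 to 3 in WT, where F11 was called without control diet replicate 3 or 5 or CDAHFD replicate 2, and 0 to 1 in TSP-1 null, with 0 without control diet replicate 3. The genotype comparisons and the interaction had 0 genes called under each of these alternatives.

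The median log2FC of the 10 genes less that of all genes was -0.94 in WT and -0.83 in TSP-1 null. With a pseudocount of 1 it was -0.80 and -0.69, without the filter -0.41 and -0.33 and under quantile normalization -0.063 and 0.062. Leaving out 1 library gave -0.99 to -0.91 and -0.87 to -0.78. For genotype it was 0.09 on the control diet (0.06 to 0.13 without 1 library, -0.012 under quantile normalization) and 0.20 on CDAHFD (0.16 to 0.25, 0.10 without the filter), and 0.14 for the interaction (0.10 to 0.21). Under quantile normalization the diet log2FC turned from negative to 0.13 for Fga in WT and to 0.35, 0.14 and 0.12 for Fga, Fgg and Plg in TSP-1 null. The cause was not tested.

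The replicate numbers did not pair the mice. Same-numbered libraries had deviation correlations of -0.133 to 0.0812, and 4 of 20 libraries were closest to their own number. With the replicate block 2 genes were called in WT, 1 in TSP-1 null and 0 by genotype, as without it.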
